A study of Mus musculus with 20 samples.

Results

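The genes described here are 10 factors and targets of the Hippo-Yap pathway, taken by symbol from a fixed list. They are Yap1, Wwtr1, Tead1, Ctgf, Cyr61, Ankrd1, Amotl2, Lats2, Ajuba and Axl. All 10 were measured in both count tables of the study, among 13107 genes in 1 experiment and 11210 in the other. In the table of the Myc experiment Ctgf and Cyr61 are listed under their newer names Ccn2 and Ccn1, and they were matched by Entrez identifier.

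The cells were p19/Nras, a mouse line from a liver tumor driven by Nras in p19/Arf-null mice, so that every group shared the p19 loss and the Nras transgene. In the Myc experiment, Trim33-WT cells (sgCtrl) and the lines Trim33-KO1 and Trim33-KO2 (sgTrim33) carried the pWZL control vector (WT Ctrl, KO1 Ctrl, KO2 Ctrl) or a Myc vector (WT Myc, KO1 Myc, KO2 Myc). In the HU experiment, Trim33-WT and Trim33-KO cells were kept for 4 hours with 1 mM hydroxyurea (WT HU, KO HU), a drug that stalls replication forks, or as controls labelled vehicle (WT vehicle, KO vehicle). Which knockout line was used in the HU experiment is not given in the sources used here. Each of the 10 groups had 2 RNA-seq libraries. The study's legends speak of independent RNA-seq experiments and of more replicates than were analysed here, but do not say whether the libraries of a group came from separate cultures. The p-values therefore measure only the spread between these libraries, which may be technical.

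In the Hippo pathway the Lats kinases phosphorylate the coactivators Yap and Taz (the product of Wwtr1) and keep them out of the nucleus, where they otherwise bind DNA through Tead factors. The pathway is switched on by cell contacts in dense cultures and off by spreading and actin tension, and it restrains the size of the liver. Ctgf, Cyr61 and Ankrd1 are its most used target genes, while the targets Amotl2 and Lats2 encode inhibitors of Yap. The density of the cultures is not given in the sources used here, and its part in any difference below was not tested.

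The promoters of the target genes are shown because they hold the letters that Tead factors are known to bind. RefSeq promoters (GRCm38.p6, 250 bases before to 50 after a start site) were on hand for 8 of the 10 genes, as 10 sequences, but not for Ctgf and Tead1. The Tead core GGAATG, searched on both strands (CATTCC on the other), was in 9 of these 10 sequences, with at least 1 match for each of the 8 genes, against 14.7% of all 32851 promoters in the same table. The sequences of Wwtr1 overlapped, and their matches were the same site counted again. Since the genes were listed as factors and targets of the pathway, their share is a description only. The match of Lats2 lay 4 bases after 1 of its start sites and the others lay before the start, from 65 bases in Amotl2 to 233 in Axl. In the following stretches of 250 bases before the start site, capitals mark the Tead core. Cyr61 and Ankrd1 are shown for their changes between Trim33-KO and Trim33-WT cells and Ajuba for its change under HU.
Cyr61, chr3:145312950-145313199, minus strand: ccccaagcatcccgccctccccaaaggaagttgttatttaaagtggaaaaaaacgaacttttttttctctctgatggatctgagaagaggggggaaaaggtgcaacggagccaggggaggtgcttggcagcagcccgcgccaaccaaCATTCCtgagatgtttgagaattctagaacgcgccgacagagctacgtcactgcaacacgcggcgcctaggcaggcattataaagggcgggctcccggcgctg
Ankrd1, chr19:36194335-36194584, minus strand: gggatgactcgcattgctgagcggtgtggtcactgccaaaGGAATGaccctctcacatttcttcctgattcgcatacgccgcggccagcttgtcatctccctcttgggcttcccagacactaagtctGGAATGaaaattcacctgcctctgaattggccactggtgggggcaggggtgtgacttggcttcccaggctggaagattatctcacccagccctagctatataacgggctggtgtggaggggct
Ajuba, chr14:55196499-55196748, minus strand: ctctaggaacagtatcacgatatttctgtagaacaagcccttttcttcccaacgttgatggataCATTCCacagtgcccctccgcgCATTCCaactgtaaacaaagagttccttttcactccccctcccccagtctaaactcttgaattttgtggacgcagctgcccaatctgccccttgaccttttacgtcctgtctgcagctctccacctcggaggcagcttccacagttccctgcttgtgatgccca
Coordinates are those of the exact match in mm9, the build of the study. The stretches of Cyr61 and Ankrd1 adjoin the annotated 5′ ends of these genes, at chr3:145309935-145312949 and chr19:36186455-36194334 in GENCODE M1. Cyr61 has its core 103 bases before the start, Ankrd1 has cores at 210 and 123 bases, and Ajuba has cores at 186 and 164 bases. The AP-1 motif TGANTCA, which can hold Tead and AP-1 factors together, was in 0 of the 10 sequences against 7.81% of all promoters, and the CArG box bound by Srf was in 0 against 1.63%. The E-box CACGTG, a motif of Myc, was in the sequences of Yap1 and Lats2 and in 7.15% of all promoters. A match describes these letters only and was not tested as a binding site.

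Trim33 RNA did not follow the labels in some libraries. The paper examined the lines by immunoblotting, and RNA levels do not measure the protein. Trim33 had 236 and 247 CPM (the library's count for the gene, scaled to the library total) in WT Ctrl, 122 and 130 CPM in the KO1 line and 204 and 210 CPM in the KO2 line with this vector. Those labelled WT Myc had 132 and 158 CPM, below the 186 and 195 CPM of the pair labelled KO1 Myc, while the pair labelled KO2 Myc had 125 and 126 CPM. The levels of KO1 Myc were thus nearest to KO2 Ctrl and those of KO2 Myc to KO1 Ctrl. The Myc gene had 415 and 421 CPM in WT Ctrl and 461 and 466 CPM in WT Myc. In KO1 it had 185 and 196 CPM with the control vector and 624 and 655 CPM with the Myc vector. In KO2 it had 213 and 222 CPM and then 462 and 503 CPM. Myc RNA thus rose less in WT than in the knockout lines, and the part of this in the vector comparisons and interactions below was not tested. In the HU experiment Trim33 separated the groups, with 127 to 145 CPM in the 4 WT libraries and 43.0 to 51.5 CPM in the 4 KO libraries. Every value below that involves a Myc vector therefore belongs to the libraries so labelled. Library totals lay between 14753177 and 17949430 counts with the vectors and between 2315327 and 3082202 counts with or without HU. Of 16 hepatocyte markers only Afp was measured in either experiment, whereas 8 and 7 of 8 mesenchymal and 4 and 3 of 8 epithelial markers were, so that the liver label is not borne out by hepatocyte genes such as Alb or Hnf4a.

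All 10 genes were well covered, and their lowest counts were those of Lats2, 517 in the Myc and 92 in the HU experiment. Compared per length (CPM per kb of exon), Cyr61 had the highest mean level in the Myc experiment, at 425 CPM per kb, followed by Axl at 284, Ankrd1 at 142 and Ctgf at 72.0 CPM per kb. In the HU experiment Axl led with 220 CPM per kb and Cyr61 followed with 148 CPM per kb. The factors themselves were lower, with Wwtr1 at 43.8, Yap1 at 19.3 and Tead1 at 15.9 CPM per kb in the Myc experiment, and Lats2 was the lowest in both experiments, at 6.16 and 6.36 CPM per kb. Ankrd1 and Ctgf varied most over the 12 libraries of the Myc experiment, with the highest level 3.62 and 3.53 times the lowest, and Axl and Yap1 varied least, at 1.45 and 1.48 times. Over the 8 libraries of the HU experiment this ratio was 3.45 for Cyr61 and at most 1.72 for each of the others.

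**Figure D1:**
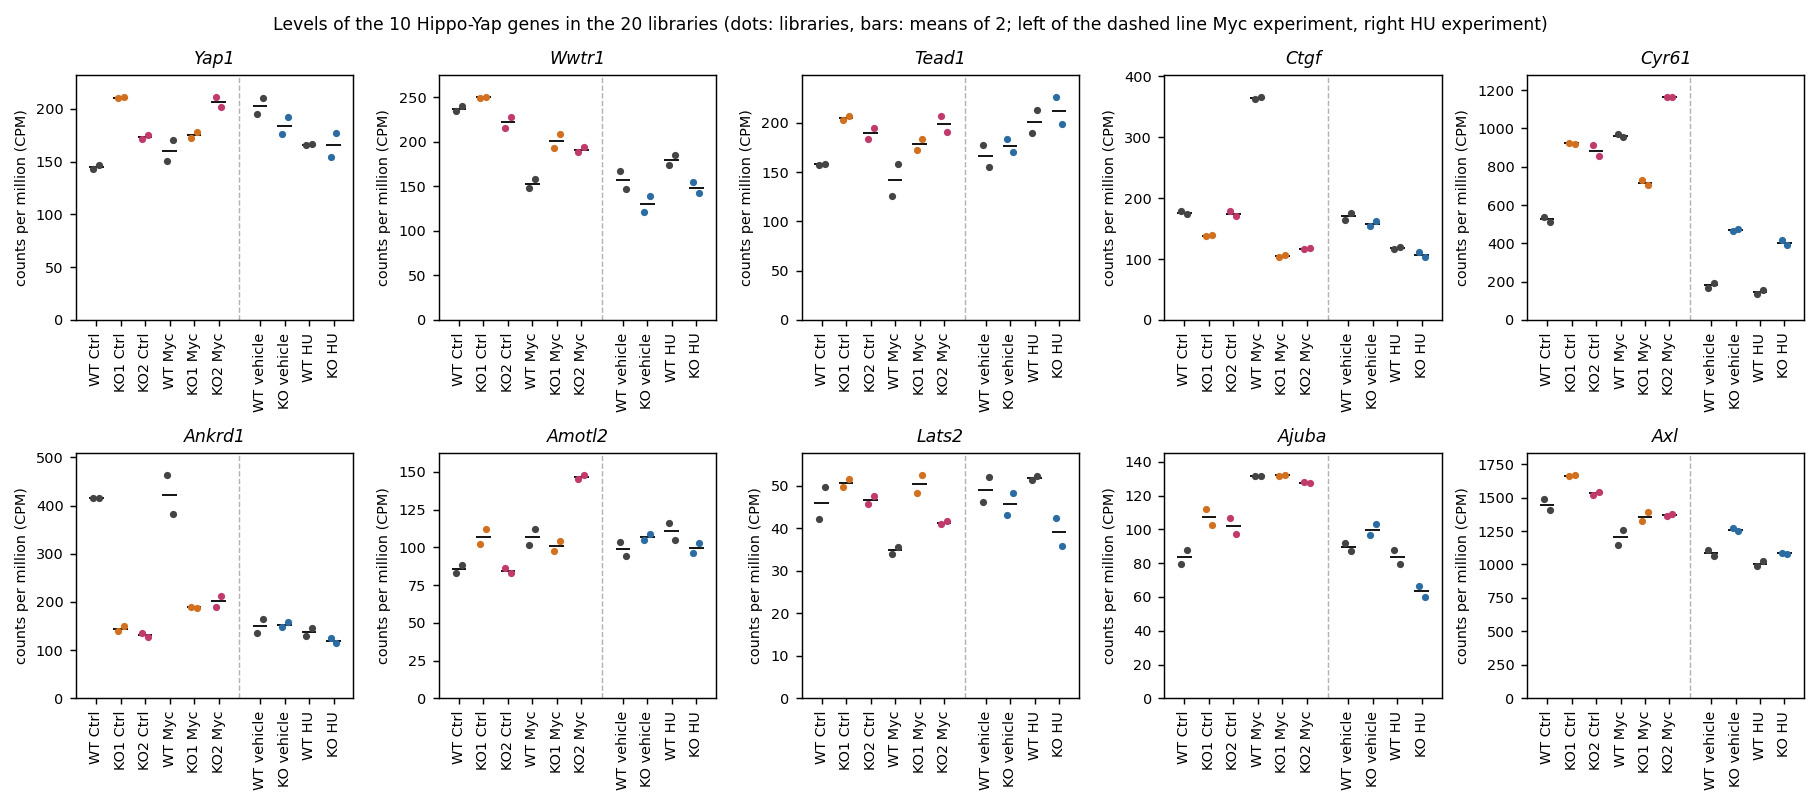
Level in CPM (y axis, linear from 0) of each of the 10 genes in the 20 libraries, grouped by line, vector and treatment on the x axis; dots are libraries and bars the means of 2. Ankrd1 lay between 382 and 463 CPM in the WT libraries of the Myc experiment and between 128 and 213 CPM in all KO libraries, whereas in the HU experiment all groups lay between 114 and 164 CPM.

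The first comparison asked how the pathway's genes differed in Trim33-KO cells with the control vector. Cyr61, which encodes a secreted matricellular protein, rose in both lines, Ankrd1, an ankyrin repeat protein of muscle and stressed cells, fell in both, and Ctgf, the relative of Cyr61, fell in KO1. Thus the 3 classical Yap targets did not move together. Genes were called at a Benjamini-Hochberg adjusted p-value below 0.01 in edgeR's quasi-likelihood test over all genes. In KO1 Ctrl 7 of the 10 genes were called, 5 higher and 2 lower, where 52.2% of all genes tested were called. In KO2 Ctrl 2 of 10 were called, where 49.9% of all genes were.

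Cyr61 had 539 and 511 CPM in WT Ctrl, 926 and 920 CPM in KO1 Ctrl, and 914 and 854 CPM in KO2 Ctrl. All 4 KO libraries lay above both WT libraries. The log2 fold change (log2FC) was 0.76 ± 0.053 (SE, n = 2 against 2, edgeR adjusted p = 3.5e-09) in KO1 and 0.67 ± 0.053 (edgeR adjusted p = 2.0e-08) in KO2. Ankrd1 had 417 and 416 CPM in WT Ctrl, 140 and 149 CPM in KO1 Ctrl, and 135 and 128 CPM in KO2 Ctrl. It was the most changed of the 10 genes in both lines and its KO libraries lay far below the WT libraries. The level fell by 1.58 ± 0.081 on the log2 scale in KO1, 2.99-fold (edgeR adjusted p = 7.3e-11), and by 1.75 ± 0.081 in KO2, 3.36-fold (edgeR adjusted p = 3.8e-11).

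Ctgf had 179 and 174 CPM in WT Ctrl, 138 and 139 CPM in KO1 Ctrl, and 179 and 170 CPM in KO2 Ctrl. It fell by 0.40 ± 0.052 on the log2 scale in KO1 (edgeR adjusted p = 4.3e-06), whereas its KO2 libraries overlapped the WT libraries (log2FC −0.10 ± 0.051, edgeR adjusted p = 0.11). Yap1 had 143 and 147 CPM in WT Ctrl, 210 and 211 CPM in KO1 Ctrl, and 172 and 176 CPM in KO2 Ctrl. It rose in KO1, by a log2FC of 0.49 ± 0.060 (edgeR adjusted p = 2.7e-06), and in KO2 its log2FC of 0.18 ± 0.060 missed the threshold (edgeR adjusted p = 0.017). Its DNA-binding partner Tead1 (log2FC 0.32), the Yap-binding angiomotin Amotl2 (0.27) and Ajuba (0.30), a LIM protein that holds back the Lats kinases, also rose in KO1. The paralog of Yap1, Wwtr1, the kinase gene Lats2 and the receptor tyrosine kinase gene Axl were not called in either line, with log2FC values from −0.18 to 0.15.

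The calls of Yap1, Ctgf, Cyr61 and Ankrd1 in KO1 and of Cyr61 and Ankrd1 in KO2 held when each library was left out in turn. Tead1 lost its call in KO1 without any 1 of the 4 libraries, Amotl2 without WT Ctrl replicate 1 or KO1 Ctrl replicate 2, and Ajuba without replicate 1 of either group, with log2FC values from 0.20 to 0.37 and edgeR adjusted p-values up to 0.045. With WT Ctrl and KO2 Ctrl alone in the fit, without the libraries of the Myc vector, 6 of the 10 genes were called in KO2 (59.3% of all genes in that fit), Wwtr1, Yap1, Tead1 and Ajuba in addition, and Axl was called in KO1 when fitted with WT Ctrl alone. In the same libraries the sum of 8 mesenchymal markers was 6817 and 7064 CPM in WT Ctrl, 10034 and 10184 CPM in KO1 Ctrl, and 6127 and 6370 CPM in KO2 Ctrl, and the 4 epithelial markers summed to between 3967 and 4131, 3146 and 3216, and 3490 and 3554 CPM. Of 6 macrophage markers, Cd68 and Cd14 were measured and summed to 21.3 and 21.5 CPM in WT Ctrl and 31.1 to 52.5 CPM in KO1 and KO2 Ctrl. Their part in these differences was not tested.

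KO2 Ctrl was also compared with KO1 Ctrl, where 3 of the 10 genes were called and 18.3% of all genes were. Yap1 was lower in KO2 (log2FC −0.31 ± 0.059, edgeR adjusted p = 0.00088), Amotl2 was lower (−0.37 ± 0.067, edgeR adjusted p = 0.00050), and Ctgf was higher (0.31 ± 0.052, edgeR adjusted p = 0.00027). Cyr61 and Ankrd1, which were called in both lines against WT, had log2FC values of −0.09 ± 0.053 and −0.17 ± 0.082 between the lines and were not called. Yap1 lost its call without replicate 1 or 2 of KO1 Ctrl or replicate 1 of KO2 Ctrl, and Amotl2 without replicate 2 of either, with edgeR adjusted p-values up to 0.016. In the 4 libraries alone, 7 of the 10 genes were called, where 32.2% of all genes were.

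The second experiment allowed the same comparison in Trim33-KO cells kept as vehicle controls. Cyr61 was the 1 gene of the 10 that was called in KO vehicle against WT vehicle, where 5.58% of all genes were called. It had 167 and 195 CPM in WT vehicle and 466 and 474 CPM in KO vehicle. The KO libraries were well above the WT libraries and the log2FC was 1.42 ± 0.11, a 2.68-fold rise (edgeR adjusted p = 9.8e-16). Ankrd1 had 135 and 164 CPM in WT vehicle and 147 and 158 CPM in KO vehicle. These ranges overlapped, with a log2FC of 0.07 ± 0.13 (edgeR adjusted p = 0.81), in contrast to its fall in KO1 Ctrl and KO2 Ctrl. The tables were normalized separately, and the difference between the experiments was not tested. Ctgf had 164 and 176 CPM in WT vehicle and 155 and 162 CPM in KO vehicle and was not called (log2FC −0.06 ± 0.13). Yap1, Wwtr1 and Tead1 had log2FC values of −0.09, −0.23 and 0.13, and none was called.

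Under HU, Cyr61 was again the 1 gene of the 10 that was called in KO HU against WT HU, where 6.04% of all genes were. It had 138 and 157 CPM in WT HU and 416 and 391 CPM in KO HU, a log2FC of 1.50 ± 0.11 or 2.83-fold (edgeR adjusted p = 1.1e-16). In both comparisons its call held without each of the libraries. The next in size were Ajuba and Lats2, each with a log2FC of −0.35, at edgeR adjusted p-values of 0.15 and 0.27. Ankrd1 had 128 and 147 CPM in WT HU and 124 and 114 CPM in KO HU, and its log2FC of −0.16 ± 0.13 was not called. The HU libraries held 92 to 3799 counts for these genes and the common biological coefficient of variation was 0.102, against 0.0498 in the Myc experiment. Standard errors were larger than in the Myc experiment, and the parts of depth and of library spread in this were not tested.

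**Figure D2:**
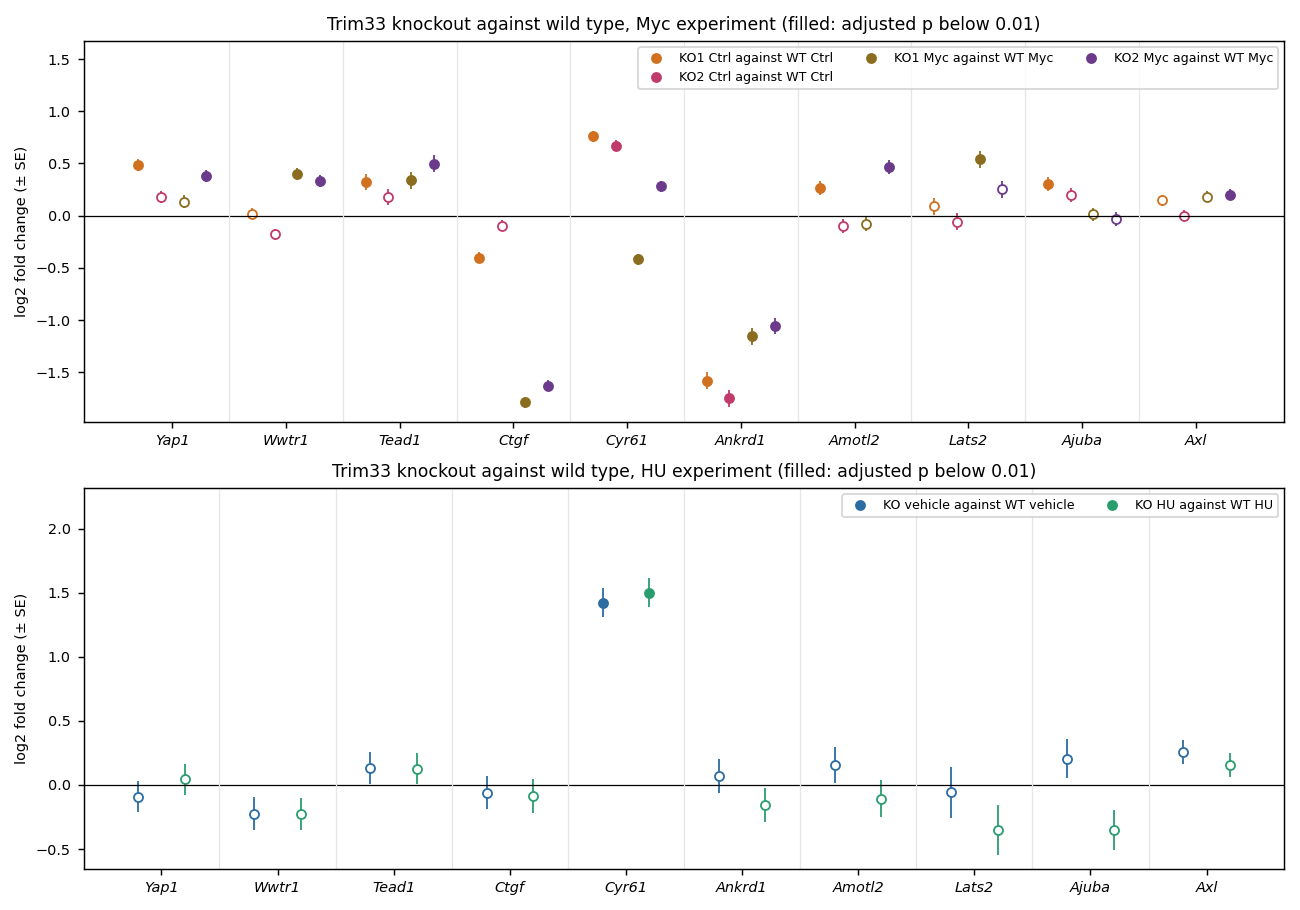
log2 fold change of Trim33-KO against Trim33-WT libraries (y axis) for each of the 10 genes, with bars of ± 1 SE; the upper panel shows the Myc experiment and the lower the HU experiment, and filled points have an adjusted p-value below 0.01. Ankrd1 lies between −1.06 and −1.75 in the 4 comparisons of the upper panel and near 0 in the lower, whereas Cyr61 lies at 1.42 and 1.50 in the lower panel and changes sign within the upper.

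With the Myc vector, the knockout lines were compared with the libraries labelled WT Myc. Ctgf and Ankrd1 were lower in both lines, and the factors Wwtr1 and Tead1 were higher. In KO1 Myc 6 of the 10 genes were called, 3 higher and 3 lower (25.1% of all genes), and in KO2 Myc 8 of 10 were called, 6 higher and 2 lower (35.2% of all genes). Ctgf had 363 and 366 CPM in WT Myc, 104 and 106 CPM in KO1 Myc, and 117 and 118 CPM in KO2 Myc. No KO library came near the WT libraries, and the level was 3.45-fold lower in KO1 (log2FC −1.79 ± 0.052, edgeR adjusted p = 5.7e-13) and 3.09-fold lower in KO2 (−1.63 ± 0.052, edgeR adjusted p = 5.1e-13). Ankrd1 had 463 and 382 CPM in WT Myc, 190 and 187 CPM in KO1 Myc, and 190 and 213 CPM in KO2 Myc, with log2FC values of −1.16 ± 0.079 and −1.06 ± 0.079.

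Cyr61 went in opposite directions in the lines. It had 970 and 955 CPM in WT Myc, 730 and 704 CPM in KO1 Myc, and 1162 and 1165 CPM in KO2 Myc. It fell in KO1 (log2FC −0.42 ± 0.053, edgeR adjusted p = 1.5e-05) and rose in KO2 (0.28 ± 0.053, edgeR adjusted p = 0.00034), the latter not with WT Myc and KO2 Myc alone in the fit. Wwtr1 rose in KO1 (0.40) and KO2 (0.33), and Tead1 in KO1 (0.34) and KO2 (0.50). Lats2 rose in KO1 (0.54 ± 0.081), and Yap1 (0.38 ± 0.059), Amotl2 (0.47 ± 0.064) and Axl (0.20 ± 0.053) rose in KO2. Ajuba had log2FC values of 0.01 and −0.03 and was not called in either line. Tead1 lost its call in KO1 without WT Myc replicate 1 or KO1 Myc replicate 2 (log2FC from 0.18 to 0.51 over the 4 libraries left out in turn), and Axl in KO2 without WT Myc replicate 1 or either KO2 Myc library (0.14 to 0.26). Both calls were also lost with only the groups compared in the fit. Without WT Myc replicate 2, Yap1 (0.22) and Axl (0.24) were called in KO1 too.

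The vector comparison asked how the genes differed between libraries labelled Myc and Ctrl in each line. In WT cells Ctgf, Cyr61, Ajuba and Amotl2 rose and Wwtr1, Lats2 and Axl fell, in all 7 of the 10 genes, where 44.3% of all genes were called. Ctgf went from 179 and 174 CPM in WT Ctrl to 363 and 366 CPM in WT Myc, a log2FC of 0.97 ± 0.051 (edgeR adjusted p = 4.7e-10). Cyr61 went from 539 and 511 CPM to 970 and 955 CPM (0.79 ± 0.053, edgeR adjusted p = 6.5e-09). Wwtr1 went the other way, from 234 and 241 CPM to 148 and 159 CPM (−0.71 ± 0.057, edgeR adjusted p = 4.3e-08), and the libraries of Ankrd1 overlapped (−0.06 ± 0.077), although without WT Myc replicate 1 its log2FC of −0.21 was called, as was that of Tead1 (−0.41) without WT Myc replicate 2. Ajuba had 79.6 and 88.0 CPM in WT Ctrl and 132 CPM in both WT Myc libraries (0.57 ± 0.067), and Lats2 had 42.1 and 49.6 CPM and then 34.0 and 35.7 CPM (−0.48 ± 0.082). Axl fell by 0.35 ± 0.053 on the log2 scale. Amotl2, at 0.24 ± 0.066, lost its call with DESeq2, with WT Ctrl and WT Myc alone in the fit, and without WT Ctrl replicate 1 (0.17 to 0.30 over the libraries left out), WT Ctrl replicate 2 or WT Myc replicate 2.

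In the knockout lines 7 of the 10 genes were called as well, 2 higher and 5 lower in KO1 Myc against KO1 Ctrl (36.1% of all genes) and 5 higher and 2 lower in KO2 Myc against KO2 Ctrl (38.8% of all genes). Ctgf fell in both, from 138 and 139 to 104 and 106 CPM in KO1 (log2FC −0.42 ± 0.053) and from 179 and 170 to 117 and 118 CPM in KO2 (−0.57 ± 0.052), opposite to its rise in WT. Ankrd1 rose in both, from 140 and 149 to 190 and 187 CPM in KO1 (0.36 ± 0.081) and from 135 and 128 to 190 and 213 CPM in KO2 (0.63 ± 0.081). Cyr61 fell in KO1 (−0.38 ± 0.053) and rose in KO2 (0.41 ± 0.053). Amotl2 had 86.1 and 83.2 CPM in KO2 Ctrl and 146 and 148 CPM in KO2 Myc, the rise of 0.80 ± 0.065 being the largest of the 10 genes in this line. Yap1 fell in KO1 (−0.29) and rose in KO2 (0.26). Ajuba rose and Wwtr1 fell in all 3 lines.

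With 1 library left out, between 4 and 6 genes were called in KO1 and in KO2, where between 24.4% and 27.7% and between 26.5% and 31.2% of all genes were. In KO1 the calls of Yap1, Ankrd1 and Ajuba were lost without KO1 Myc replicate 1, that of Ankrd1 also without KO1 Ctrl replicate 1, and that of Ajuba also without KO1 Ctrl replicate 2 or KO1 Myc replicate 2, and in KO2 the calls of Yap1, Wwtr1 and Ajuba were lost without KO2 Ctrl replicate 2, that of Wwtr1 also without each of the other 3 libraries, and that of Yap1 also without replicate 1 of either group. Yap1 had 210 and 211 CPM in KO1 Ctrl and 211 and 202 CPM in KO2 Myc, and 172 and 176 CPM in KO2 Ctrl and 172 and 178 CPM in KO1 Myc, the same arrangement as that of Trim33. Other genes were not arranged so. Lats2 had means of 50.7 CPM in KO1 Ctrl, 50.4 in KO1 Myc, 46.7 in KO2 Ctrl and 41.3 in KO2 Myc. Cyr61 had means of 923 CPM in KO1 Ctrl, 717 in KO1 Myc, 884 in KO2 Ctrl and 1163 in KO2 Myc. Whether the Myc libraries of the lines bear the right labels was not tested, and the values above follow the labels.

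The difference between lines in the Myc comparison was tested as an interaction. In KO1 minus WT 7 of the 10 genes were called (37.3% of all genes) and in KO2 minus WT 5 were (32.8% of all genes). The largest were those of Ctgf, with differences in log2FC of −1.38 ± 0.073 in KO1 and −1.53 ± 0.073 in KO2, and of Cyr61 in KO1 (−1.18 ± 0.075, edgeR adjusted p = 4.0e-09). Cyr61 in KO2 had a smaller difference (−0.39 ± 0.075). Wwtr1, which fell least in KO2, had differences of 0.38 ± 0.080 and 0.51 ± 0.080, and Ankrd1 of 0.42 ± 0.11 and 0.69 ± 0.11. Amotl2 differed downwards in KO1 (−0.35 ± 0.093) and upwards in KO2 (0.57 ± 0.093). Yap1 (−0.35 ± 0.084) and Lats2 (0.45 ± 0.11) were called in KO1, whereas Tead1, Ajuba and Axl were called in neither. In KO1 some calls were lost with 1 library left out. Those of Yap1, Ankrd1, Amotl2 and Lats2 were lost without KO1 Ctrl replicate 2, and those of Yap1, Ankrd1 and Lats2 without KO1 Ctrl replicate 1. Yap1, Ankrd1 and Amotl2 lost theirs without WT Ctrl replicate 1 or KO1 Myc replicate 1. Ankrd1 and Lats2 lost theirs without WT Ctrl replicate 2 or KO1 Myc replicate 2. The call of Amotl2 was also lost without WT Myc replicate 2, with DESeq2, and with the groups compared alone. In KO2 the genes Yap1 (0.29), Tead1 (0.49) and Axl (0.26) were called without WT Myc replicate 2, and Lats2 (0.43) without WT Ctrl replicate 1. The share of all genes called also changed with a library left out.

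**Figure D3:**
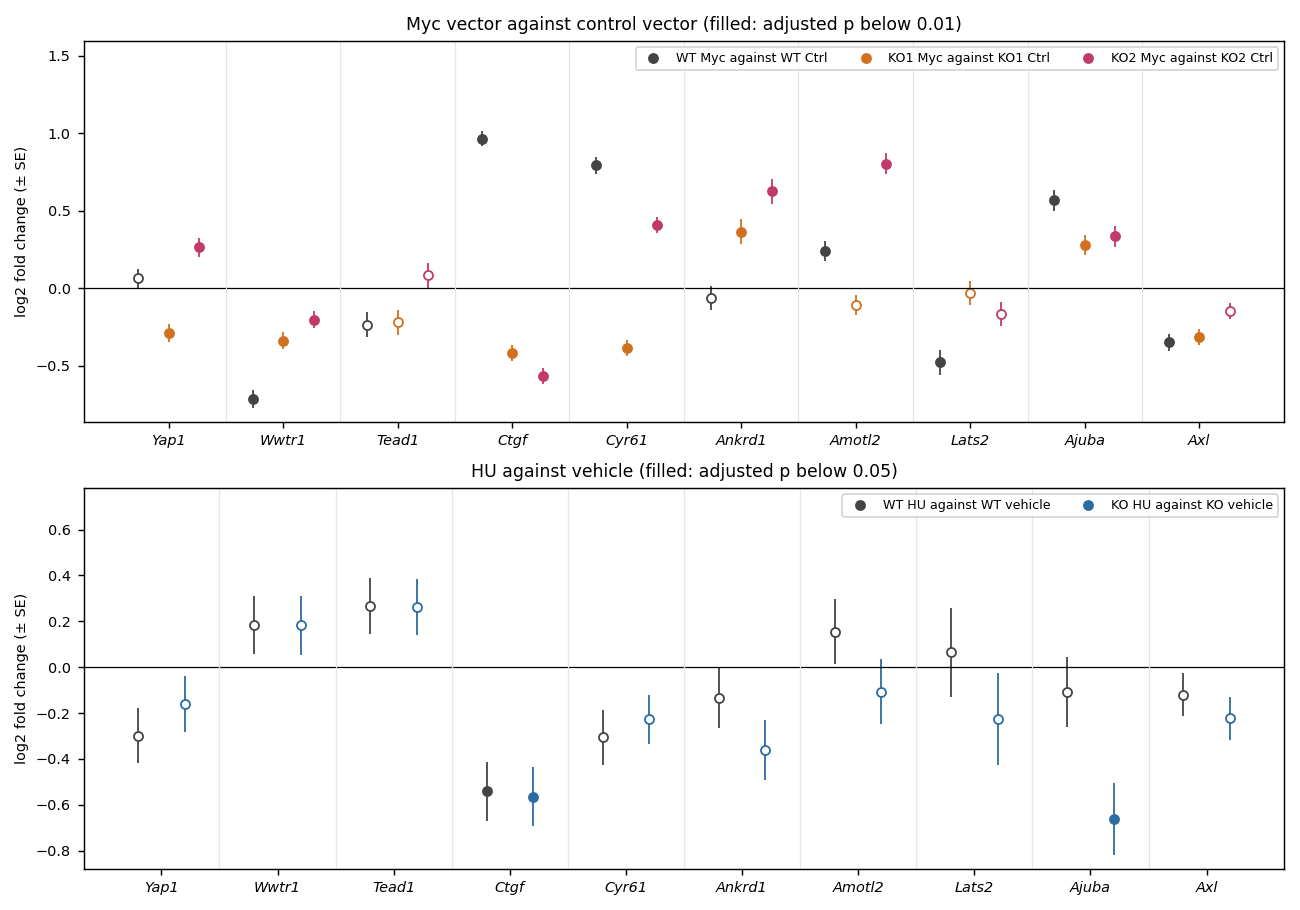
log2 fold change (y axis, bars of ± 1 SE) of the 10 genes for the Myc against the control vector in WT, KO1 and KO2 (upper panel, filled at an adjusted p-value below 0.01) and for HU against vehicle in WT and KO (lower panel, filled below 0.05). Ctgf lies at 0.97 in WT but at −0.42 and −0.57 in the knockout lines, and under HU it lies at −0.54 and −0.56.

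The HU comparison asked how the genes differed after 4 hours of stalled replication, and a gene was called at an adjusted p-value below 0.05. Ctgf fell in both genotypes. It was the 1 gene called of the 10 in WT (9.83% of all genes) and 1 of 2 in KO (6.45% of all genes), the other being Ajuba. Ctgf had 164 and 176 CPM in WT vehicle and 116 and 119 CPM in WT HU. Both HU libraries lay below both vehicle libraries, and the level fell by 0.54 ± 0.13 on the log2 scale (edgeR adjusted p = 0.0022). In KO cells it had 155 and 162 CPM in vehicle and 112 and 103 CPM in HU, and fell by 0.56 ± 0.13 on the log2 scale (edgeR adjusted p = 0.0020). Ajuba had 96.6 and 103 CPM in KO vehicle and 66.5 and 60.1 CPM in KO HU, a fall of 1.58-fold (log2FC −0.66 ± 0.16, edgeR adjusted p = 0.0026). In WT it had 92.0 and 87.2 CPM in vehicle and 87.6 and 79.4 CPM in HU, which overlapped (−0.11 ± 0.15).

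Cyr61 had log2FC values of −0.31 ± 0.12 in WT and −0.23 ± 0.11 in KO, and Yap1 of −0.30 ± 0.12 and −0.16 ± 0.12, and neither was called. Tead1 had 0.27 and 0.26 and Wwtr1 had 0.18 in both genotypes, also without a call. Ankrd1 had −0.13 ± 0.13 in WT and −0.36 ± 0.13 in KO (edgeR adjusted p = 0.094). The interaction of HU with genotype was called for 0 of the 10 genes by edgeR and 0 by DESeq2, and 0.0714% of all genes were called. At an unadjusted p below 0.05 there was 1 of 10, Ajuba, with a difference of −0.55 ± 0.22 (edgeR adjusted p = 0.83). The fall of Ajuba in KO alone is therefore not shown to differ from WT. The calls under HU rested on few libraries: without WT HU replicate 1 the 1 call in WT was lost (edgeR adjusted p = 0.060 for Ctgf), without WT vehicle replicate 1 Cyr61 was called too, and without KO HU replicate 2 both calls in KO were lost (edgeR adjusted p = 0.067 for Ctgf and 0.072 for Ajuba).

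Lists of related genes placed these 10 among their neighbours in the pathway. Of 18 Hippo kinases and scaffolds measured, 3 rose and 7 fell in KO1 Ctrl, and 3 rose and 4 fell in KO2 Ctrl. Of all genes tested, 25.5% rose and 26.7% fell in the former, whereas 23.3% rose and 26.6% fell in the latter. Those with the largest changes were Taok2, a kinase upstream of the pathway (log2FC 0.63 in KO1 and 0.69 in KO2), Dlg5, a polarity scaffold (0.54 and 0.76), Wwc1, the Kibra scaffold (−0.59 in KO1), and Fat1, a giant cadherin (0.57 in KO2). In WT Myc 10 of the 18 fell and 1 rose, with a median log2FC of −0.28 against 0.0069 over all genes, of which 22.7% fell and 21.6% rose. Among them were Mob1b, a Lats coactivator (−0.997), Stk3, the Mst2 kinase (−0.73), and Lats1 (−0.59), which fell along with its paralog Lats2.

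Of 11 Yap and Tead cofactors and adaptors, 3 rose and 1 fell in KO1 Ctrl and 4 rose and 1 fell in KO2 Ctrl. The shares of all genes were 25.5% higher and 26.7% lower in KO1 Ctrl, and 23.3% higher and 26.6% lower in KO2 Ctrl. Tead2, a paralog of Tead1, had 83.1 and 83.5 CPM in WT Ctrl, 153 and 152 CPM in KO1 Ctrl and 156 and 150 CPM in KO2 Ctrl. Its log2FC values of 0.82 and 0.79 were larger than the 0.32 and 0.18 of Tead1, and it rose in WT Myc too (0.73), where Tead1 had −0.24. The 19 further Yap targets split, with 9 higher and 7 lower in KO1 Ctrl and 6 higher and 5 lower in KO2 Ctrl. Fstl1, a secreted glycoprotein, had 39.7 and 37.1 CPM in WT Ctrl and 0.923 and 1.12 CPM in KO1 Ctrl (log2FC −5.28). Gadd45a, a growth arrest gene, fell by 2.15 on the log2 scale in KO1 and fell by 2.58 in KO2, so that Ankrd1 was not alone among Yap targets in its fall. Others rose, among them Foxf2 in both lines (1.27 and 1.00). Edn1 rose in KO1 (3.24), from 0.203 and 0.786 CPM in WT Ctrl.

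The 14 genes of Srf and the actin cytoskeleton, which answer to the tension that also sets Yap, were 7 higher and 3 lower in KO1 Ctrl and 3 higher and 4 lower in KO2 Ctrl. Among all genes, 25.5% were higher and 26.7% lower in KO1 Ctrl, and 23.3% were higher and 26.6% lower in KO2 Ctrl. In the vector comparison 10 of the 14 fell in KO1, where 18.2% of all genes did, and 0 rose by edgeR or DESeq2 (1 at an unadjusted p below 0.05), whereas 6 rose and 4 fell in KO2, where 20.2% and 18.6% of all genes did. The 8 mesenchymal markers summed to 10034 and 10184 CPM in KO1 Ctrl and to 5604 and 5922 CPM in KO1 Myc, and in KO2 they went from 6127 and 6370 to 8077 and 7897 CPM. Their part in the changes of these genes was not tested. Trim33 is known to bind Smad proteins, whose part here was not tested. Of 18 TGF-beta targets 12 rose and 4 fell in KO1 Ctrl (median log2FC 0.56, against −0.0036 over all genes). In KO2 Ctrl 8 rose and 6 fell (median 0.19). With the Myc vector this was not so in KO1. Against WT Myc, 2 rose and 10 fell in KO1 Myc (median −0.43), where 12.6% and 12.5% of all genes did. In KO2 Myc 5 rose and 4 fell (median 0.12), where 17.2% and 18% of all genes did. Id3, an inhibitor of basic helix-loop-helix factors, had 20.1 and 14.8 CPM in WT Ctrl, 123 and 129 CPM in KO1 Ctrl and 81.9 and 81.2 CPM in KO2 Ctrl, and Id2 rose in both lines (1.27 and 1.64). Tgif1, of the same list, went the other way and fell in both lines (−0.93 and −1.33).

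Between genotypes in the HU experiment, 3.07% of all genes rose and 2.52% fell in KO vehicle. There 2 of 18 Hippo kinases and scaffolds fell, Frmd6 (−0.62 ± 0.14) and Sav1 (−0.60 ± 0.15), the scaffold of the Mst kinases. Of 10 cofactors and of 14 further Yap targets 0 were called by edgeR or DESeq2. At an unadjusted edgeR p below 0.05, 3 cofactors were higher and 3 further targets were lower. Of all 11210 genes, 2766 passed that level in 1 direction or the other. In the other lists 2 of 13 actin genes rose, among them Actg1 (0.78), and 3 of 16 TGF-beta targets rose, among them Id1 (1.01). In WT HU against WT vehicle, 6.39% of all genes rose and 3.44% fell. There 2 of 18 Hippo kinases and scaffolds rose and 1 of 10 cofactors rose. Of 14 further Yap targets 1 rose and 2 fell, and of 13 actin genes 2 rose and 2 fell. Fat1 had 123 and 114 CPM in WT vehicle and 323 and 347 CPM in WT HU (log2FC 1.49). Ptpn14, a phosphatase that holds Yap in the cytoplasm, rose by 1.19. Gadd45a, which damaged DNA is known to induce, had 5.18 and 13.0 CPM in WT vehicle and 62.0 and 58.9 CPM in WT HU. Actb fell by 0.79 on the log2 scale, while Zyx, a focal adhesion protein, rose by 0.95.

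**Figure D4:**
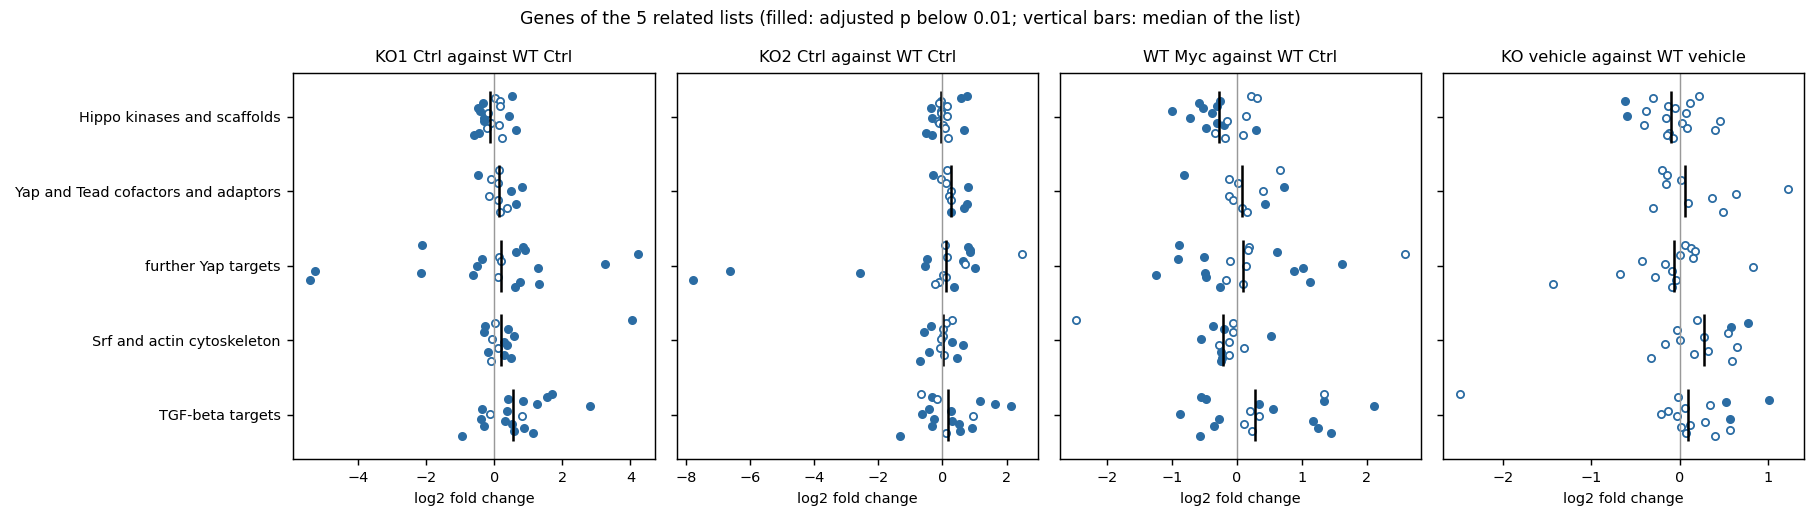
log2 fold change (x axis) of the genes of 5 lists (rows) in 4 comparisons; each point is a gene, filled at an adjusted p-value below 0.01, and vertical bars are the medians of the lists. In WT Myc against WT Ctrl the Hippo kinases and scaffolds have a median of −0.28, and in KO1 Ctrl against WT Ctrl the TGF-beta targets have a median of 0.56.

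The 10 genes did not all share a pattern over the libraries. After centring log2(CPM + 1) within each experiment, the 45 pairs of genes had Pearson correlations from −0.77 to 0.73 over the 20 libraries, with a median of 0.016 and 24 of 45 above 0. Within the 12 libraries of the Myc experiment the median was −0.078, with 13 pairs above 0.5 and 10 below −0.5. Within the 8 libraries of the HU experiment the median was −0.021, with 9 pairs above 0.5 and 7 below −0.5. There Ctgf went with Yap1 (0.82), Ankrd1 (0.82) and Ajuba (0.81), whereas Yap1 and Tead1 had −0.93. Most of these did not hold in the Myc experiment. In its libraries Ctgf had −0.52 with Yap1, 0.62 with Ankrd1 and −0.016 with Ajuba, and Yap1 and Tead1 had 0.84. These points share groups of 2 libraries and are given as a description. Of 10074 genes with at least 5 CPM on average, those most like Ankrd1 over the 20 libraries were Mtln (r = 0.93) and H13 (r = 0.93), followed by H2-D1, Dut and Ash2l. Those most like Cyr61 were Trp53 (r = 0.91), Snrpd2 (0.90), Gm10120, Snai1 and Ddx47, and those most like Ctgf were Slc25a4 (r = 0.86), Mtch2 (0.86), P2ry10b, Cdh17 and Fzd7. No other member of the set was among the 5 nearest genes of these 3 targets.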

How the data were processed

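RNA-seq libraries of the Myc experiment (12) and the HU experiment (8) were used. According to the submitters' notes, reads were mapped to mm9 with STAR 2.5.4, and edgeR 3.26.8 is also named; the counting tool and annotation are not given in the sources used here. The authors deposited whole-number counts per gene, although 1 table, that with the vectors, is named as if normalized. Of the counts from 1 to 50, 71.9% were even in the HU experiment and 48.4% in the Myc experiment, so that HU counts were also halved as an alternative. The paper names other extraction and library kits than the labels. Further deposited tables hold the authors' own log2 fold changes, mean log2 CPM, F statistics and p-values, and were not used.

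Counts were tested with edgeR 4.0.16 (R 4.3.3, limma 3.58.1): filterByExpr removed 0 genes, TMM factors were 0.958 to 1.02, and all groups of an experiment were fitted together by the quasi-likelihood test, with Benjamini-Hochberg adjustment over all genes. Thresholds were 0.01, and 0.05 for HU against vehicle and its interaction. SE is the absolute log2 fold change divided by the square root of F. CPM used library totals, and levels per kb used the exons of GENCODE M1. The procedure was tested on simulated data. Alternatives were DESeq2 1.42.0, RLE size factors, no filter, a mean of 5 CPM, only the groups compared, an absolute log2 fold change of 0.5, a replicate block, halved counts, and each library left out. With 2 against 2 libraries an exact permutation test cannot fall below 0.05.

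The 10 genes and the lists were chosen with earlier results of these data known. Named genes are the 10, from each pathway list those of the 3 called genes with the largest absolute log2 fold change (mean of at least 1 CPM) that the text needs, and the 5 genes most correlated with Ctgf, Cyr61 and Ankrd1 (mean of at least 5 CPM). Lists were described by counts, with no set test. A called gene of the cofactor list is not reported here.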

Additional observations from a re-analysis of the deposited data

Results flagged for a closer look

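A test of the difference itself separated the lines for several of the 10 genes, and the values are differences in log2 fold change. Between KO2 Ctrl and KO1 Ctrl these were Yap1 (−0.31), Ctgf (0.31) and Amotl2 (−0.37). For the Myc against the control vector, KO1 minus WT differed for Yap1 (−0.35), Wwtr1 (0.38), Ctgf (−1.38), Cyr61 (−1.18), Ankrd1 (0.42), Amotl2 (−0.35) and Lats2 (0.45). For the same vectors, KO2 minus WT differed for Wwtr1 (0.51), Ctgf (−1.53), Cyr61 (−0.39), Ankrd1 (0.69) and Amotl2 (0.57). The interactions share the libraries of WT Ctrl and WT Myc and rest on the labels of the Myc libraries. In a group of 2 libraries it cannot be told which of them lies far from the rest, and each was only left out in turn.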

How the results depend on the processing

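Of 1110 values of the 10 genes under the alternatives other than leaving out a library, 1043 kept their direction and their side of the threshold, and of 720 values with 1 library left out 626 did. Requiring an absolute log2 fold change of at least 0.5 as well left 2 called genes in KO1 Ctrl, 0 in KO2 against KO1 Ctrl, 4 in WT Myc, 0 in KO1 Myc and 3 in KO2 Myc against their Ctrl, 3 in KO1 Myc and 2 in KO2 Myc against WT Myc, and 2 in the Myc effect in KO1 minus WT. The shares of all genes called under this requirement and under the replicate block were not computed. With only the groups compared in the fit, 6 genes were called in KO2 Ctrl and 7 in KO2 against KO1 Ctrl. With 1 library left out, which left 1 library in its group, the number of called genes changed in KO1 Ctrl and in KO2 against KO1 Ctrl. It also changed in KO1 Myc and KO2 Myc against their Ctrl, in the Myc effect in KO1 and KO2 minus WT, in WT HU and in KO HU. The share of all genes called changed in these fits too, so that such shifts were not particular to the 10 genes. The cause was not tested.

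Only values that were not called changed sign. Axl in KO2 Ctrl went from −0.00054 to 0.0050 with RLE size factors and with DESeq2, 0.015 at a mean of 5 CPM and 0.015 with the groups compared alone. Of the HU interactions, Wwtr1 was −0.00051 with the replicate block, and Tead1 was 0.0081 at a mean of 5 CPM and 0.014 with halved counts. With 1 library left out, Lats2 ranged from −0.025 to 0.21 in KO1 Ctrl, −0.17 to 0.068 in KO2 Ctrl, −0.083 to 0.045 in KO1 Myc against KO1 Ctrl, −0.021 to 0.13 in WT HU and −0.14 to 0.017 in KO vehicle, Axl from −0.038 to 0.038 in KO2 Ctrl and −0.026 to 0.094 in the Myc effect in KO1 minus WT, Yap1 from −0.024 to 0.15 in WT Myc and −0.053 to 0.14 in KO HU, Ankrd1 from −0.21 to 0.076 in WT Myc and −0.061 to 0.21 in KO vehicle, and Tead1 from −0.14 to 0.19 in the Myc effect in KO1 minus WT. For the HU interaction the ranges were −0.088 to 0.11 for Wwtr1, −0.10 to 0.12 for Tead1, −0.087 to 0.035 for Ctgf and −0.019 to 0.19 for Cyr61.

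Libraries with the same number were not treated as pairs in the main fit. The correlation of their deviations lay between −0.024 and 0.083 for pairs of groups with or without HU. For pairs of groups with a vector it lay between −0.35 (WT Myc and KO2 Myc) and 0.48 (WT Myc and KO1 Myc). Whether the Myc libraries share a pairing was not tested. With the replicate block 3 genes were called in KO2 Ctrl in place of 2, Wwtr1 being added, 4 in place of 3 in KO2 against KO1 Ctrl, again with Wwtr1, and 9 with Lats2 in place of 8 in KO2 Myc against WT Myc, where the crossed pairing, chosen after seeing the data, also gave 9; in the other comparisons the number of called genes did not change under the block. The HU experiment had lower totals and a larger biological coefficient of variation (0.102 against 0.0498), and their parts in the lower numbers of calls there were not tested.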

Other observations

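Afp, a fetal liver protein and the 1 hepatocyte marker measured, ordered the lines differently in the 2 experiments. It had 31.7 and 28.9 CPM in WT Ctrl, 0.791 and 0.919 CPM in KO1 Ctrl, and 8.68 and 8.26 CPM in KO2 Ctrl. In the libraries labelled Myc it had 25.4 and 19.8 CPM in WT, 3.56 and 2.57 CPM in KO1, and 0.299 and 0.223 CPM in KO2. In the HU experiment it was between 11.6 and 17.3 CPM in the 4 WT libraries and between 20.2 and 26.5 CPM in the 4 KO libraries. Ankrd1, Trim33 and Afp thus all separated WT Ctrl from KO1 Ctrl and KO2 Ctrl, and of these Ankrd1 did not separate the genotypes in the HU experiment.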
